A study of Homo sapiens with 9 samples.

Results

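The mean of 2 NRF2 activators was set against the vehicle to describe the expression response that both gave in human keratinocytes. HaCaT, an immortalised line of human keratinocytes, was treated for 14 h with 1% DMSO, with 250 nM CDDO-Me or with 10 µM PRL-295, and RNA was sequenced from 3 libraries of each group. All 9 of the 9 libraries enter the comparison: 6 treated libraries, with the CDDO-Me and PRL-295 groups given equal weight, and 3 DMSO libraries. DMSO is named for the control group alone, no group is given a genotype or engineered allele, and separate cultures are not stated, so p-values measure only the spread between these samples, which may be technical. The concentrations of the compounds differ, so their values stand side by side as given and no potency is compared. A gene was called common when the pooled contrast passed an adjusted p of 0.05 and both compound means lay on the same side of the DMSO mean. The pooled contrast can pass through 1 compound, so a common gene need not differ from DMSO with each compound alone.

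NRF2 (gene NFE2L2) is a transcription factor that KEAP1 marks for degradation in unstressed cells. When KEAP1 is blocked, by electrophiles that modify its cysteines or by compounds that occupy its NRF2 pocket, NRF2 accumulates, pairs with small MAF proteins and binds antioxidant response elements. Its targets make glutathione, reduce thioredoxin and quinones, supply NADPH, handle heme and iron and export conjugates, and in skin they protect keratinocytes against oxidants and ultraviolet light. CDDO-Me, also called bardoxolone methyl, is a triterpenoid of the electrophilic kind. PRL-295 is a code name, and the study's title speaks of activators that are not electrophiles and of wound healing.

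Promoter stretches of common genes are shown first, because they hold letters that match the element NRF2 is known to bind. The core TGACNNNGC and its variant TGAGNNNGC were searched on both strands of the 250 bases before each RefSeq transcription start (GRCh38.p14). The variant was added after the first core had been counted. Each stretch is written 5′ to 3′ on the gene's strand, with the match in capitals. A match in capitals that begins with GC is the core or its variant read on the other strand. The OSGIN1, AKR1C1 and AKR1C2 matches are of the variant, and the other stretches shown match the core.
ME1: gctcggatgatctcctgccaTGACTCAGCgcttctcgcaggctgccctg
LUCAT1: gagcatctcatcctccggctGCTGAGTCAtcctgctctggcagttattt
OSGIN1: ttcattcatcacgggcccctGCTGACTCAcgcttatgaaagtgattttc
GCLM: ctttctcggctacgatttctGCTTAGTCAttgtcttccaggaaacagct
GPX2: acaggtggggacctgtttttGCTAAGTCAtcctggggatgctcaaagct
TXNRD1: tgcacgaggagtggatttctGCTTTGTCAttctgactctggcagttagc
AKR1C1: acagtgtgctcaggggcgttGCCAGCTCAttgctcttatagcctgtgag
AKR1C2: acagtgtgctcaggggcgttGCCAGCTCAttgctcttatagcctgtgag
These lie at chr6:83431160-83431208 (ME1, minus strand), chr5:91314428-91314476 (LUCAT1, minus), chr16:83953121-83953169 (OSGIN1, plus), chr1:93909436-93909484 (GCLM, minus), chr14:64942839-64942887 (GPX2, minus), chr12:104286910-104286958 (TXNRD1, plus, 1 of 2 starts in the table), chr10:4963354-4963402 (AKR1C1, plus) and chr10:5003874-5003922 (AKR1C2, minus). All 49 bases of the AKR1C1 and AKR1C2 stretches were identical. At least 1 of the 2 cores was present in 14 of the 23 common higher NRF2 list genes that had a promoter in the table (60.9%). The share was 110 of 288 (38.2%) for all common higher genes, 69 of 195 (35.4%) for common lower genes and 3466 of 10422 (33.3%) for all tested genes. For the first core alone these were 8 of 23 (34.8%), 65 of 288 (22.6%), 34 of 195 (17.4%) and 1673 of 10422 (16.1%). NRF2 list genes that were tested but not called were not counted. Counted per start, 23.9% of 35116 promoters held a core. GCLC had no match in this window. A match is a stretch of letters and no evidence of binding.

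A second motif, the core of the interferon-stimulated response element, was searched in the same way as GAAA, any 2 bases and GAAA. The reason was that 16 of the 29 tested interferon-stimulated genes were called common lower. The capitals mark the match, and TTTC at its start means the other strand.
ISG15: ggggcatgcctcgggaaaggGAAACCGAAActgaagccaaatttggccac
BST2: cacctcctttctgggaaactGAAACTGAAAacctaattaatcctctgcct
IFIT1: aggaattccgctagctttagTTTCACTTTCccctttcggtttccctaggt
IFIT3: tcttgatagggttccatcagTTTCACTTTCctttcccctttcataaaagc
They lie at chr1:1013370-1013419 (ISG15, plus strand), chr19:17405725-17405774 (BST2, minus), chr10:89392487-89392536 (IFIT1, plus) and chr10:89332458-89332507 (IFIT3, plus). ISG15, BST2 and IFIT1 each held a further match that overlaps or adjoins the one shown. This core was present in 9 of the 12 common lower interferon-stimulated genes with a promoter in the table (75%), in 20 of 195 common lower genes (10.3%), in 12 of 288 common higher genes (4.17%) and in 349 of 10422 tested genes (3.35%). The 24 tested interferon-stimulated genes with a promoter held it at the same share, 18 of 24, whether or not they were called.

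Libraries held 23383800 to 32942156 counted reads and 14543 to 23271 genes with at least 1 count. CDDO-Me 1 stood apart: it had the fewest genes and a score of 120.5 on the first principal component (46.9% of the variance), against -24.4 to -2.44 for the other 8 libraries. The level of a gene across libraries followed its GC content to different degrees, with correlations across genes of 0.325 to 0.370 in DMSO, -0.651 to 0.007 in CDDO-Me and -0.477 to 0.316 in PRL-295. Common higher genes had a median GC content of 42.9%, common lower genes 57.4% and all tested genes 49.2%. With each library corrected for GC content and gene length, 236 of 388 common higher and 136 of 295 common lower genes were called again. Summed keratinocyte markers were 14981 to 16120 CPM (TMM-scaled counts-per-million) in DMSO, 17870 to 20552 with CDDO-Me and 12046 to 12950 with PRL-295. Summed markers of fibroblasts (at most 13.1 CPM; 3 of 8 genes at 0 in every library), melanocytes (9.96; 1 of 7), immune cells (2.02; 3 of 8) and endothelial cells (2.66; 2 of 7) were low in all libraries. In bulk RNA, fewer cells of a type and less RNA per cell cannot be told apart.

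Of 16239 tested genes, 690 passed the pooled contrast (4.25%). Both compounds were above DMSO for 388 of them (2.39% of tested genes) and below it for 295 (1.82%), and 7 had the compounds on opposite sides (0.0431%). The groups share the DMSO libraries, so lying on the same side is partly shared error. All 6 treated libraries lay outside the DMSO range in 348 of the 388 and 245 of the 295. Over all tested genes, 858 (5.28%) lay wholly above and 939 (5.78%) wholly below. A change of at least 2-fold with each compound was reached by 94 common higher and 28 common lower genes, against 507 (3.12%) and 284 (1.75%) of all tested genes. Protein-coding genes made up 94.1% of the higher and 99.7% of the lower set, against 80.2% of tested genes. The counts moved with single libraries: 1312 and 1017 genes without CDDO-Me 1 and 683 and 402 without PRL-295 2, but 85 and 73 without DMSO 1, 87 and 66 without DMSO 2, and 143 and 116 without DMSO 3. Without PRL-295 1 they were 189 and 131, without PRL-295 3 they were 182 and 99, without CDDO-Me 2 they were 294 and 188, and without CDDO-Me 3 they were 249 and 196. All 388 and all 295 were called again without CDDO-Me 1, and 74 and 54 were called in each of the 9 fits that left out 1 library. The split of 388 against 295 turned to 323 against 391 when limma was run on log2(FPKM + 1).

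**Figure D1:**
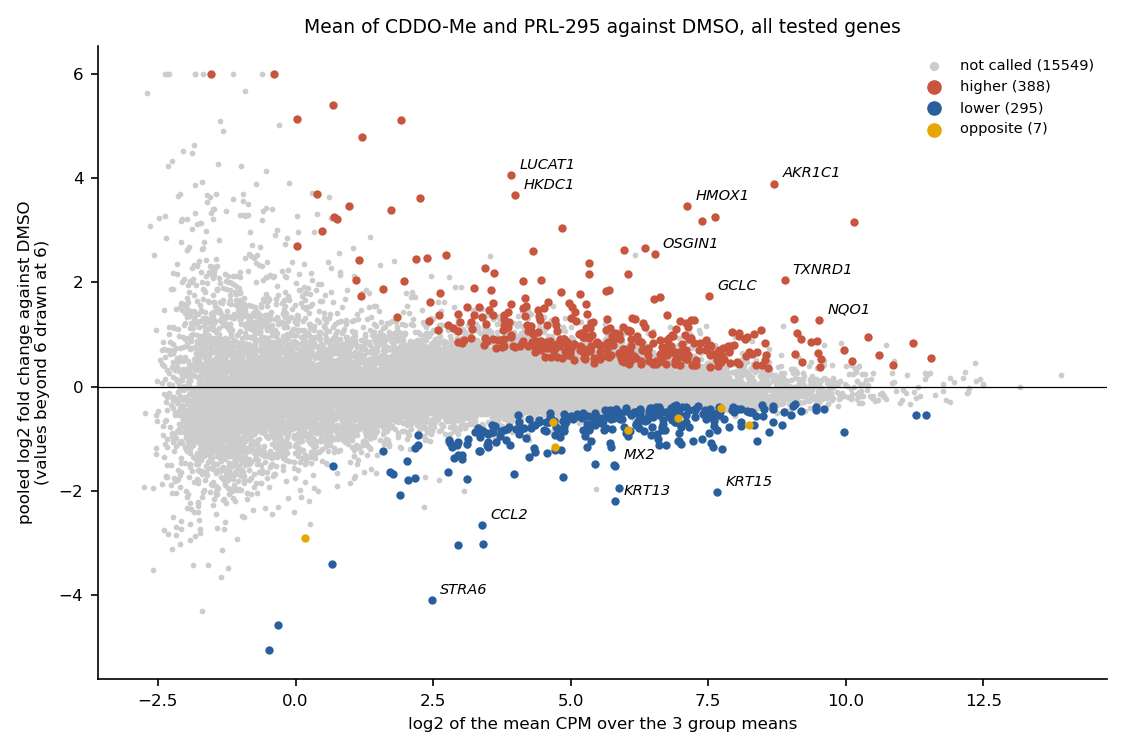
Pooled log2 fold change of both compounds against DMSO (vertical axis) over the log2 of mean CPM (horizontal axis) for 16239 tested genes; coloured points are the 388 common higher, 295 common lower and 7 opposite genes. AKR1C1, HMOX1, LUCAT1 and HKDC1 stand highest among well-expressed genes, and KRT13 and KRT15 among the lowest.

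AKR1C1, TXNRD1, GCLC and OSGIN1, the genes taken as markers of NRF2 activation, all rose, and in each of them the 6 treated libraries lay far above the 3 DMSO libraries. AKR1C1 (ENSG00000187134; hg38 chromosome 10, 4963253 to 5107522), an aldo-keto reductase that reduces steroids and lipid aldehydes, had 36.3, 35.0 and 43.9 CPM in DMSO 1 to 3. It reached 638, 939 and 827 CPM with CDDO-Me and 392, 424 and 410 CPM with PRL-295. The lowest treated library was thus well clear of the highest control. The pooled log2 fold change was 3.90 ± 0.15 (SE; 20.9-fold with CDDO-Me, 10.7-fold with PRL-295; adjusted p = 6.17e-07 in edgeR's quasi-likelihood test). AKR1C1, AKR1C2 and AKR1C3 are paralogs whose annotated spans overlap, so the share of each is uncertain.

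TXNRD1 (ENSG00000198431; chromosome 12, 104215779 to 104350305), thioredoxin reductase 1, had 140, 161 and 161 CPM in DMSO, 603, 738 and 653 with CDDO-Me and 585, 605 and 617 with PRL-295. The treated groups overlapped each other and neither overlapped DMSO (pooled log2 fold change 2.04 ± 0.10, edgeR adjusted p = 2.41e-06). The direct difference, PRL-295 minus CDDO-Me, was -0.14 on the log2 scale (95% interval -0.37 to 0.09), so a difference within that interval was not resolved. OSGIN1 (ENSG00000140961; chromosome 16, 83948282 to 83966332), an oxidative stress induced growth inhibitor, had 17.4, 23.2 and 24.5 CPM in DMSO, 131, 138 and 148 with CDDO-Me and 104, 128 and 115 with PRL-295. It rose by a pooled 2.54 ± 0.14 (edgeR adjusted p = 6.88e-06), with a direct difference of -0.26 (-0.58 to 0.05). GCLC (ENSG00000001084; chromosome 6, 53497341 to 53616970), the catalytic subunit of the enzyme that starts glutathione synthesis, had 70.1, 68.6 and 74.7 CPM in DMSO, 219, 321 and 250 with CDDO-Me and 230, 196 and 214 with PRL-295. Its pooled rise was 1.74 ± 0.13 (edgeR adjusted p = 5.07e-05). All 4 were called in each of the 9 leave-outs and in all 19 alternatives, and without CDDO-Me 1 their log2 fold changes were 3.97, 2.08, 2.57 and 1.80 for AKR1C1, TXNRD1, OSGIN1 and GCLC.

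**Figure D2:**
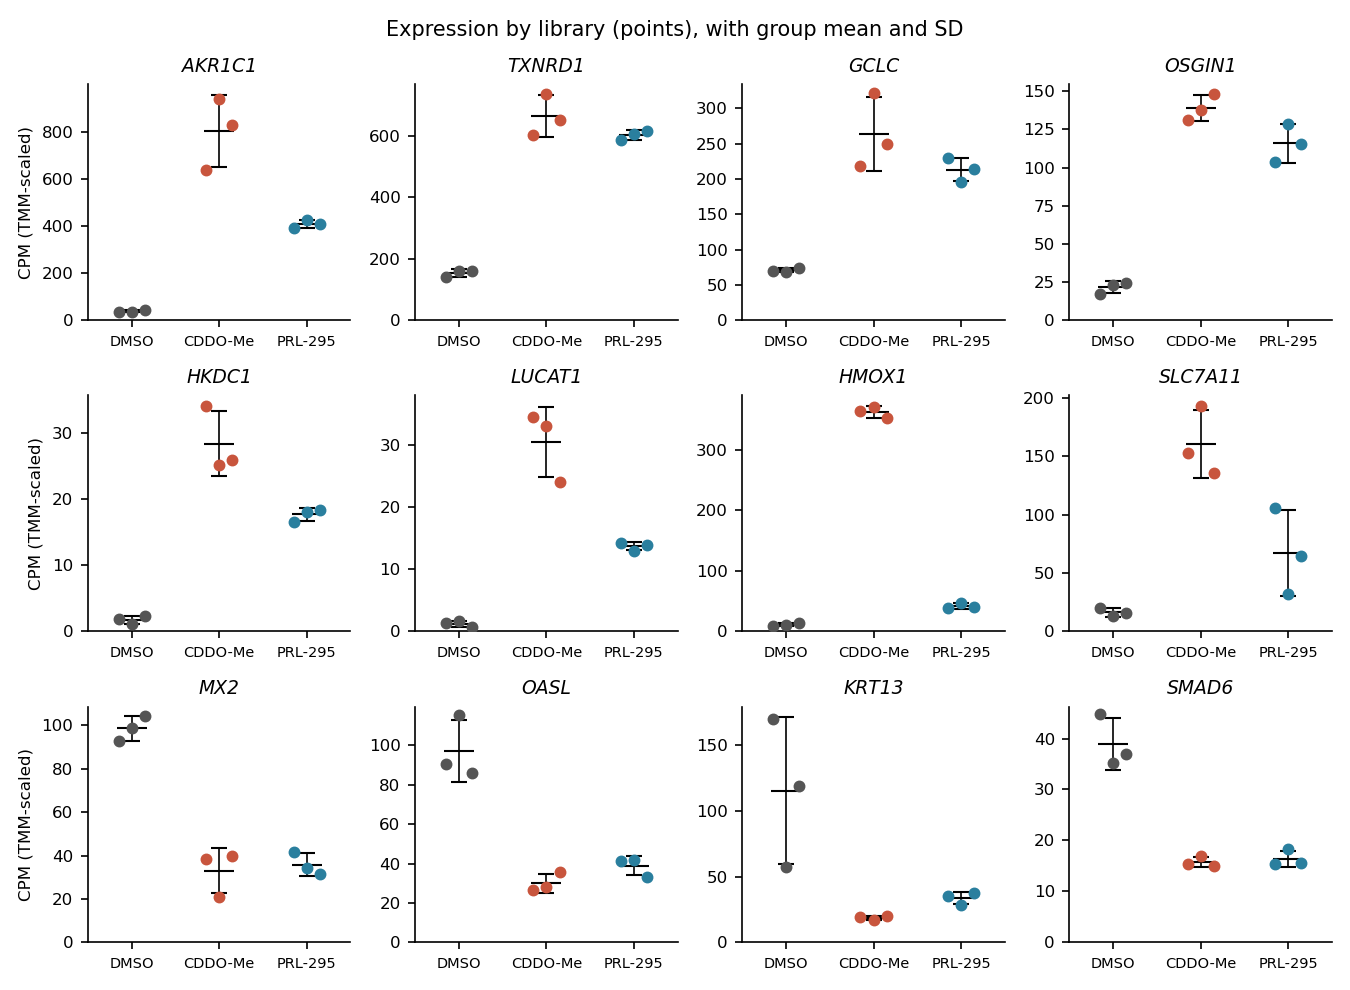
CPM of 12 named genes (vertical axes, each from 0) in the 3 DMSO, 3 CDDO-Me and 3 PRL-295 libraries; points are libraries, and the bar and whiskers are the group mean and SD (n = 3). The upper 8 genes lie higher in all 6 treated libraries than in DMSO, and MX2, OASL, KRT13 and SMAD6 lie lower.

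Across 7 lists of NRF2 target classes with 65 genes, 63 passed the filter on low counts (MGST1 and AKR1B15 were at or near 0), and 29 of these rose with both compounds and 1 fell, against 2.39% and 1.82% of all tested genes. The median log2 fold change over the 63 was 0.68 with CDDO-Me and 0.74 with PRL-295, against 0.01 and -0.01 over all tested genes. Both compounds lay above DMSO in 52 of the 63. Singly against DMSO, 30 were higher and 2 lower with CDDO-Me, and 26 and 0 with PRL-295. Over all tested genes, 4.65% were higher with CDDO-Me and 0.462% with PRL-295. The count of risers was 25 without DMSO 1 or DMSO 2 and 36 without CDDO-Me 1, and 25 genes were called in every leave-out.

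In quinone and carbonyl detoxification, 10 of 16 tested genes rose and none fell (edgeR; 13 at an unadjusted p under 0.05), and all 10 were called in every leave-out. Over all 16239 tested genes, 3399 had an unadjusted p under 0.05 in edgeR's pooled contrast. NQO1, the quinone reductase used as a standard NRF2 readout, had 342, 352 and 419 CPM in DMSO, 538, 862 and 818 with CDDO-Me and 976, 1266 and 1028 with PRL-295. It is among the genes where the PRL-295 libraries all lay above the CDDO-Me libraries, and the pooled rise was 1.27. The aldo-keto reductase AKR1B10, which reduces retinaldehyde and lipid aldehydes, rose from 9.44, 11.5 and 10.6 CPM to 67.1, 65.1 and 63.0 with CDDO-Me and 51.7, 39.5 and 44.4 with PRL-295. The fatty acid hydroxylase CYP4F11 went from 13.4, 16.04 and 12.1 CPM to 115, 84.7 and 106 and to 70.6, 62.5 and 80.6, again with no overlap with DMSO. The remaining risers were AKR1C2 (pooled log2 fold change 3.16), AKR1C3 (3.18), PTGR1 (1.38), UGDH (1.30), EPHX1 (1.03) and ALDH3A2 (0.78). PTGR1 inactivates leukotrienes and lipid enals, UGDH makes the UDP-glucuronate used in conjugation, EPHX1 hydrolyses epoxides and ALDH3A2 oxidises fatty aldehydes. UGT1A6, a glucuronosyltransferase, had a pooled change of 2.12 that did not pass (edgeR adjusted p = 0.112), from 0.644 CPM in DMSO to 3.04 and 2.61.

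For glutathione, the synthesis and recycling genes GCLC, GCLM, GSR and GPX2 and the cystine importer SLC7A11 rose, 5 of 10 tested, and GGT1 fell. GCLM, the modifier subunit of the same ligase as GCLC, had 71.8, 74.9 and 68.8 CPM in DMSO, 192, 231 and 181 with CDDO-Me and 161, 112 and 144 with PRL-295. Glutathione reductase GSR had 156, 165 and 153 CPM, then 296, 320 and 301, then 314, 387 and 325, so the treated groups overlapped each other and not DMSO (pooled log2 fold change 1.03; direct difference 0.16, 95% interval -0.07 to 0.39). GPX2, the epithelial glutathione peroxidase, rose by 0.96 with CDDO-Me and 1.00 with PRL-295. SLC7A11 was the most variable of them: 20.4, 13.0 and 15.6 CPM in DMSO, 153, 193 and 136 with CDDO-Me, but 106, 31.7 and 64.3 with PRL-295. PRL-295 2 was its lowest treated library and still lay above all controls. SLC7A11-AS1, which overlaps it on the other strand, also passed (edgeR adjusted p = 0.0306; 0.00779 to 0.129 over leave-outs), and whether counting used strand is not given. GGT1, which cleaves extracellular glutathione, had 17.5, 14.1 and 17.2 CPM in DMSO, 9.64, 10.7 and 10.0 with CDDO-Me and 7.55, 9.91 and 10.6 with PRL-295 (edgeR adjusted p = 0.0336), a call that ended without any 1 of DMSO 1 to 3, CDDO-Me 2, CDDO-Me 3, PRL-295 1 or PRL-295 3. The genes of glutathione synthetase GSS (-0.21) and the phospholipid peroxidase GPX4 (-0.35) did not pass.

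In the list of NADPH supply and the pentose phosphate pathway, 4 of 6 tested genes rose. PGD, the second dehydrogenase of the pentose phosphate pathway, had 253, 289 and 269 CPM in DMSO, 610, 669 and 685 with CDDO-Me and 628, 711 and 665 with PRL-295. The treated groups overlapped, with changes of 1.28 and 1.31 (direct difference 0.03, 95% interval -0.19 to 0.24). The malic enzyme ME1 rose by 1.32 and 1.29. TALDO1, the transaldolase of the branch of that pathway that makes no NADPH, rose by 0.45 and 0.80 (edgeR adjusted p = 0.0137), and its call ended without DMSO 1 or DMSO 2. The list's median change was 0.78, and IDH1 (0.30) and TKT (0.09) did not pass.

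In the thioredoxin list 3 of 8 rose, namely TXNRD1, OSGIN1 and the sulfiredoxin SRXN1, which repairs overoxidised peroxiredoxins. SRXN1 was at 7.29, 4.61 and 3.50 CPM in DMSO, 25.1, 9.41 and 19.7 with CDDO-Me and 7.35, 11.2 and 15.03 with PRL-295, and the nearest libraries almost touched. It passed narrowly (edgeR adjusted p = 0.0481) and its call ended without DMSO 1, 2 or 3, CDDO-Me 3, PRL-295 1 or PRL-295 3, and with library totals as the only scaling. The list count was 5 without CDDO-Me 1. Thioredoxin itself (TXN, 0.65 and 1.04) and the peroxiredoxin PRDX1 (0.62 and 1.13) had sizeable changes that did not pass (edgeR adjusted p = 0.0973 and 0.0809).

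Of 8 tested genes of heme and iron handling, HMOX1, FECH and FTL rose. HMOX1 (ENSG00000100292; chromosome 22, 35380361 to 35394214), heme oxygenase 1, had the largest direct difference among the common higher genes that passed the direct test. It had 9.24, 10.2 and 13.9 CPM in DMSO, 364, 371 and 352 with CDDO-Me and 39.0, 47.7 and 39.7 with PRL-295. No group overlapped another. These are 32.5-fold and 3.78-fold, and the direct difference was -3.10 on the log2 scale (95% interval -3.46 to -2.75; edgeR adjusted p = 1.16e-05). By contrast ferrochelatase FECH, the last enzyme of heme synthesis, rose by 0.81 and 1.06, and the ferritin light chain FTL, whose pseudogenes make its reads uncertain, by 0.94 and 0.98. FTH1, the heavy chain, missed the threshold (0.81 pooled, edgeR adjusted p = 0.0507).

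Among efflux pumps 2 of 6 rose, ABCC3 (1.16 with CDDO-Me, 0.65 with PRL-295) and ABCC2 (1.36 and 0.88), which carry glutathione and glucuronide conjugates out of the cell. ABCC2 lost its call without PRL-295 1, without PRL-295 3 or without any 1 DMSO library. Among 10 regulators, MAFG and BACH1 rose. MAFG, the small MAF partner of NRF2, had 94.7, 80.3 and 84.5 CPM in DMSO, 168, 144 and 150 with CDDO-Me and 132, 163 and 155 with PRL-295, and was called in every alternative. BACH1, which competes with NRF2 for its elements, had 11.8, 14.3 and 12.3 CPM, then 42.4, 49.4 and 43.4, then 28.4, 10.1 and 25.6. PRL-295 2 lay below every control for BACH1, whose call (edgeR adjusted p = 0.0293) ended without DMSO 1, 2 or 3, CDDO-Me 3, PRL-295 1 or PRL-295 3. The transcripts of NFE2L2 itself (pooled 0.43, edgeR adjusted p = 0.406) and of KEAP1 (0.23, 0.257) did not pass. The count of regulators was 1 without DMSO 1, 2 or 3, CDDO-Me 3, PRL-295 1 or PRL-295 3, and 4 without CDDO-Me 1.

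**Figure D3:**
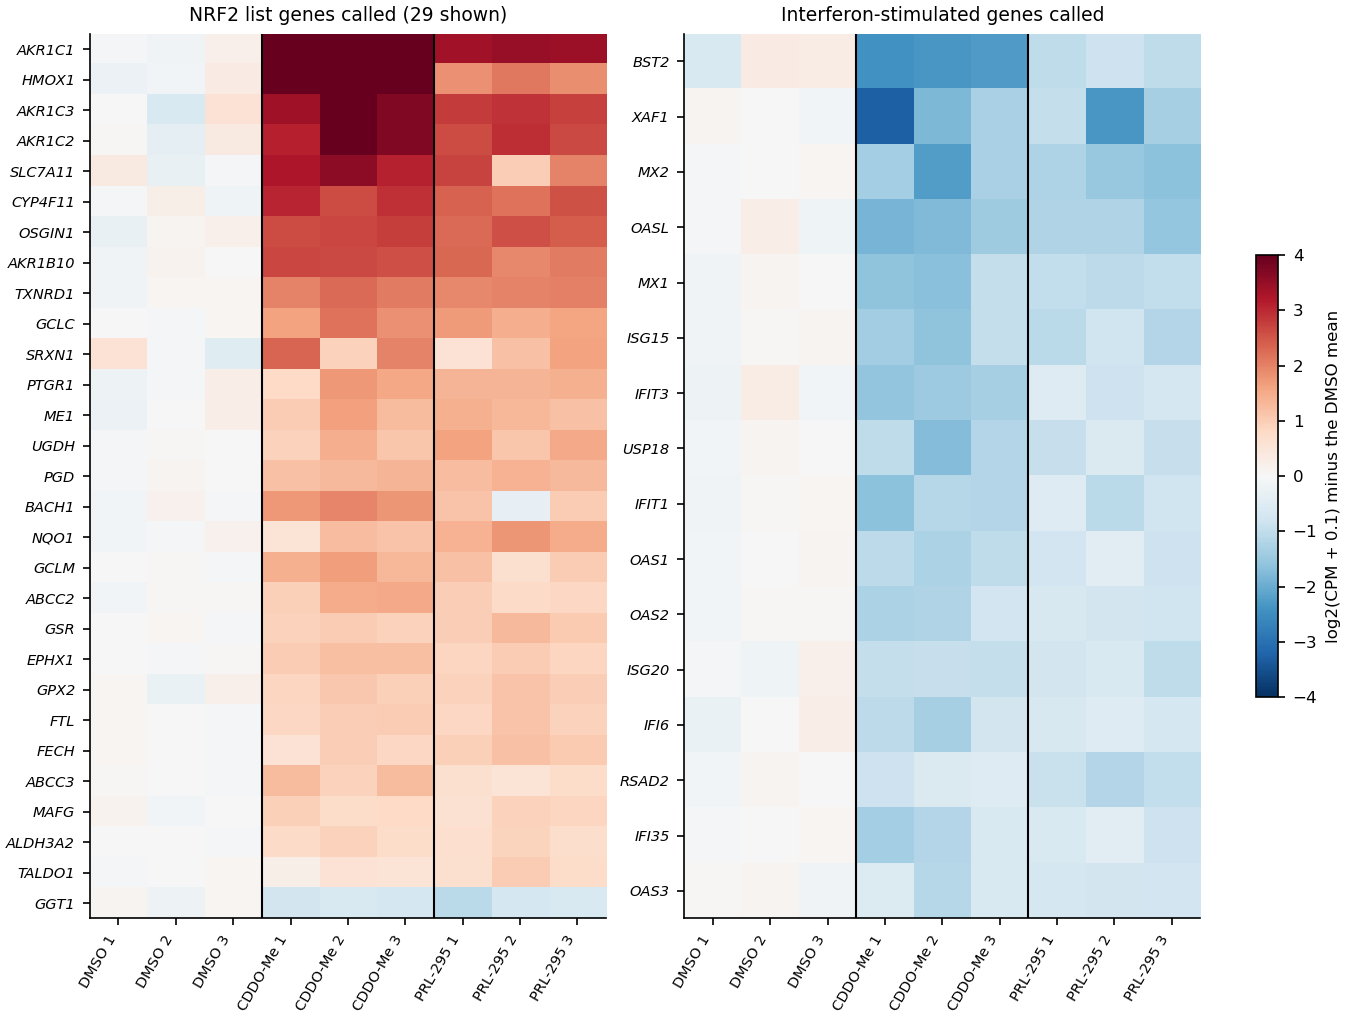
Deviation of each library from the DMSO mean, as log2(CPM + 0.1) with colours ending at -4 and 4, for 29 of the 30 called genes of the NRF2 lists (left) and the 16 called interferon-stimulated genes (right); columns are the 9 libraries. On the left all treated columns are red except those of GGT1, the 1 gene that fell, and BACH1 in PRL-295 2, and on the right they are blue.

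Outside the lists, the largest common rises with at least 1 CPM and no overlap were mostly transcripts that were nearly silent in DMSO. LUCAT1 (chromosome 5, 91303029 to 91314402), a noncoding RNA described as stress induced in lung cells, had 1.34, 1.63 and 0.687 CPM in DMSO, 34.5, 33.1 and 24.1 with CDDO-Me and 14.3, 13.0 and 13.8 with PRL-295. The rise was 25.1-fold and 11.2-fold (edgeR adjusted p = 3.34e-05). HKDC1 (chromosome 10, 69220303 to 69267559), a hexokinase domain protein, had 1.82, 1.11 and 2.31 CPM, then 34.0, 25.2 and 25.9, then 16.6, 18.1 and 18.4 (16.2-fold and 10.1-fold, edgeR adjusted p = 3.34e-05). RP11-227H15.4 overlaps HKDC1 on the other strand and rose with it, from at most 0.324 CPM to 7.58, 8.25 and 8.21 with CDDO-Me and 4.27, 2.02 and 3.37 with PRL-295, and with no stated use of strand their reads cannot be told apart. LINC00536 went from at most 0.243 CPM to 4.32, 5.54 and 4.70 and to 3.00, 1.83 and 1.04. The pseudogene TREML3P had 4 counts in all DMSO libraries together and 3.85, 3.80 and 2.63 CPM with CDDO-Me and 1.15, 1.41 and 1.44 with PRL-295. These 5 transcripts were called in all 19 alternatives.

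RP11-536K17.1 was at 0 in every DMSO library and at least 13.8-fold above the 3-count floor of a library with CDDO-Me and 5.14-fold with PRL-295, and lost its call without DMSO 1, 2 or 3. AC005336.4 and SLC7A11-AS1 passed in 2 of 9 leave-outs, those without CDDO-Me 1 and without PRL-295 2. TPT1, a translationally controlled tumour protein gene, had 52.9, 23.6 and 12.4 CPM in DMSO and anything from 76.0 to 625 CPM in the treated libraries. Its call (edgeR adjusted p = 0.0339) ended without DMSO 1, 2 or 3, CDDO-Me 3 or PRL-295 1, and its pooled change was 3.25 ± 0.74.

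Interferon-stimulated genes, the antiviral effectors switched on by interferon signalling, were lower in the majority. Of 29 tested, 16 fell and none rose (23 at an unadjusted p under 0.05), against 1.82% lower and 2.39% higher among all tested genes, with list medians of -0.97 for CDDO-Me and -0.68 for PRL-295. Over all 16239 tested genes, 3399 had an unadjusted p under 0.05 in edgeR's pooled contrast. Singly against DMSO, 17 were lower with CDDO-Me and 6 with PRL-295, against 4.57% and 0.222% of all tested genes. The count of common lower members was 9 without DMSO 2 and 19 without CDDO-Me 1, and 9 genes fell in every leave-out. The labels name no interferon treatment in any group.

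MX2 (ENSG00000183486; chromosome 21, 41361943 to 41409390), an antiviral GTPase, had 92.9, 98.8 and 104 CPM in DMSO, 38.3, 21.0 and 40.0 with CDDO-Me and 41.8, 34.2 and 31.4 with PRL-295. The treated groups overlapped each other and lay below every control (pooled log2 fold change -1.52 ± 0.18, edgeR adjusted p = 0.0012; direct difference 0.11, 95% interval -0.37 to 0.60). OASL, an oligoadenylate synthetase relative that enhances RNA sensing, had 90.5, 115 and 86.0 CPM, then 26.4, 28.2 and 35.6, then 41.5, 41.6 and 33.2. MX1 had 310, 370 and 349 CPM, then 112, 107 and 176, then 173, 166 and 175. ISG15, a ubiquitin-like modifier, had 274, 309 and 324 CPM, then 115, 97.8 and 155, then 142, 173 and 135. In each of these genes all 6 treated libraries lay below all 3 controls.

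IFIT1, which binds viral RNA caps, fell by 1.30 on the log2 scale with CDDO-Me and by 0.79 with PRL-295, and IFIT3 by 1.47 and 0.69. OAS1 and OAS2, which make the activator of RNase L, had pooled changes of -0.90 and -0.89. BST2, a tether that holds virions on the cell, had the largest CDDO-Me change of the 16, -2.48: 4.98, 9.80 and 9.44 CPM in DMSO, 1.35, 1.46 and 1.52 with CDDO-Me and 3.73, 4.31 and 3.78 with PRL-295. XAF1, a proapoptotic member, had 31.0, 28.4 and 26.6 CPM, then 2.88, 8.12 and 11.7, then 14.8, 5.56 and 11.3, and its call ended without DMSO 1, 2 or 3 or PRL-295 3 (0.00542 to 0.147 over leave-outs). Not every member moved: IFI44 (-0.04) and IFIT5 (0.04) had changes near 0, and SAMD9 (1.56) lay higher without passing (edgeR adjusted p = 0.237).

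Upstream of these genes the median change was -0.23 with CDDO-Me and -0.14 with PRL-295, and pooled changes of single genes ran from -0.86 to 1.09. Of 18 tested genes of interferon sensing and signalling, 3 fell and 1 rose, against 1.82% and 2.39% of all tested genes. Singly against DMSO, 2 were lower and 1 higher with CDDO-Me, and 0 and 0 with PRL-295. The transcription factors IRF1 (-1.03 with CDDO-Me and -0.15 with PRL-295) and IRF7 (-0.77 and -0.89) were among those that fell, and the feedback inhibitor SOCS1 rose (1.38 and 0.79). No member was called in every leave-out, and the numbers lower were 0 without DMSO 1 or DMSO 2, 1 without DMSO 3, CDDO-Me 2 or PRL-295 3, and 6 without CDDO-Me 1. Among leave-outs SOCS1 kept its call only without CDDO-Me 1, IRF1 lost it without any 1 DMSO library, CDDO-Me 2, PRL-295 1 or PRL-295 3, and IRF7 lost it without DMSO 1 or DMSO 2. In MHC class I presentation 1 of 15 fell and none rose, against the same 1.82% and 2.39%. It was the peptide transporter TAP1 (edgeR adjusted p = 0.0334), a call that ended in all leave-outs but those of CDDO-Me 1 and PRL-295 2.

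**Figure D4:**
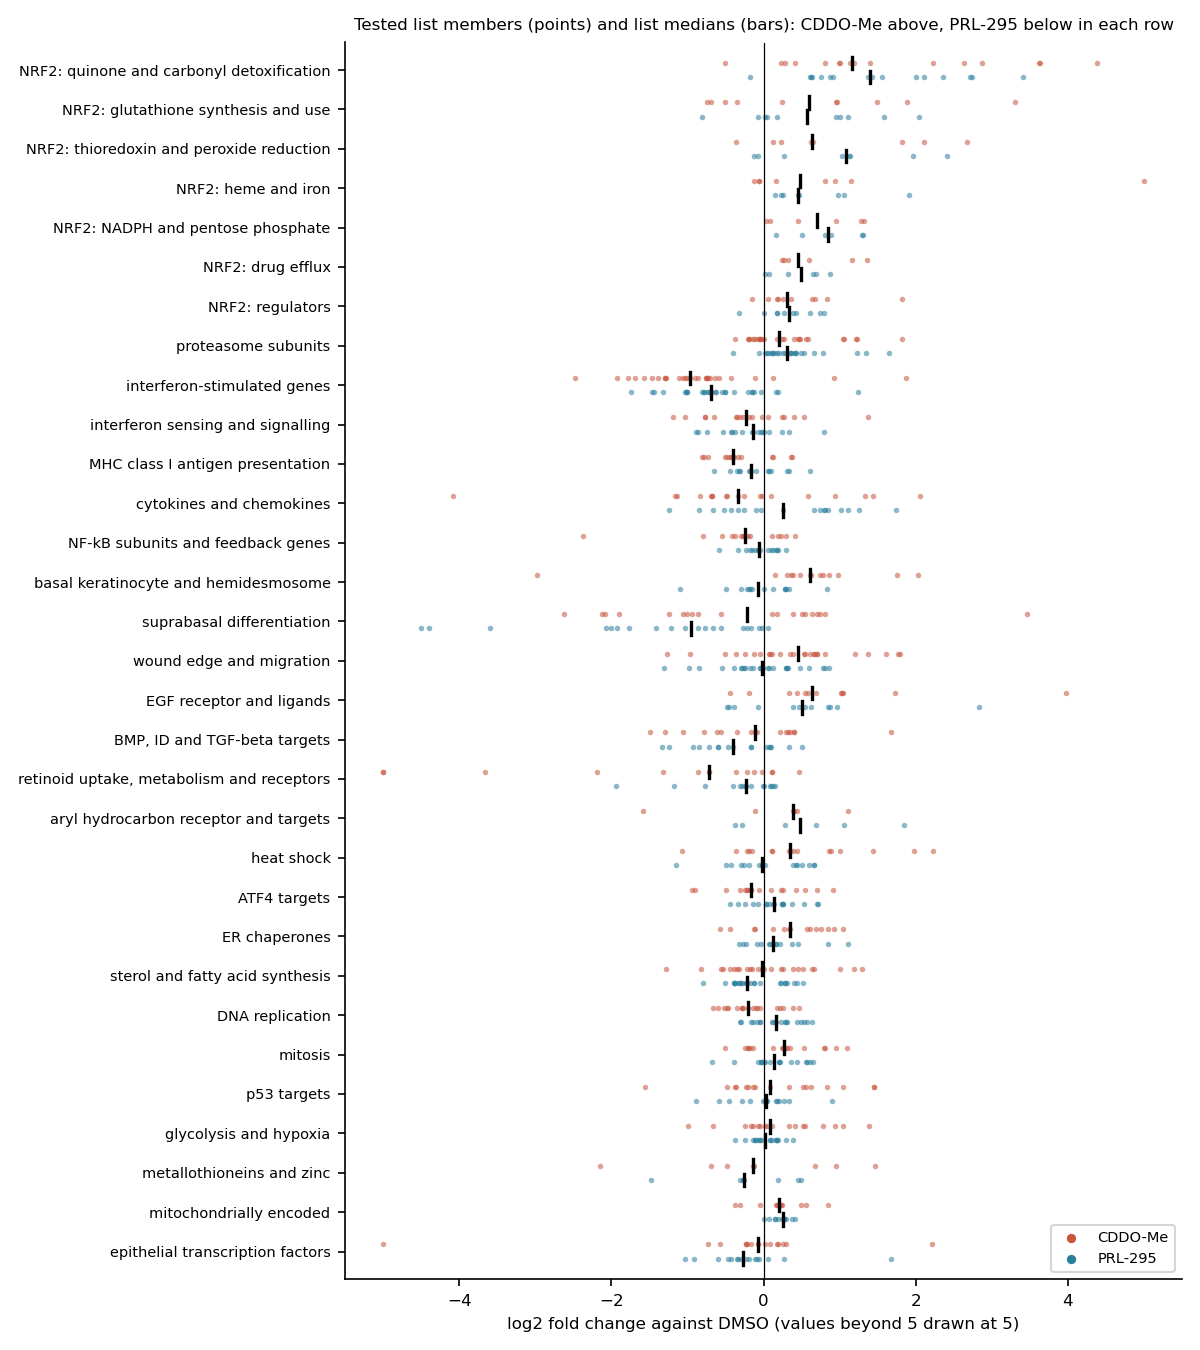
Log2 fold change against DMSO of every tested list member (points) with CDDO-Me (upper line of each row) and PRL-295 (lower line); vertical bars are list medians, and values beyond 5 are drawn at 5. The NRF2 rows lie right of 0 for both compounds, with the quinone list at 1.16 and 1.39, and interferon-stimulated genes lie left, at -0.97 and -0.68.

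Keratinocyte identity genes were mixed. In the suprabasal list 4 of 20 tested fell and none rose (7 at an unadjusted p under 0.05), against 1.82% lower and 2.39% higher among all tested genes. Over all 16239 tested genes, 3399 had an unadjusted p under 0.05 in edgeR's pooled contrast. Singly against DMSO, 4 were lower with CDDO-Me and 3 with PRL-295, against 4.57% and 0.222% of all tested genes. KRT13 (ENSG00000171401; chromosome 17, 41500981 to 41505705), a keratin of stratified mucosal epithelia, had 170, 57.6 and 119 CPM in DMSO, 19.5, 16.9 and 19.9 with CDDO-Me and 34.9, 28.4 and 37.8 with PRL-295. The controls varied widely, and every treated library lay below DMSO 2, the lowest of them (pooled log2 fold change -2.20 ± 0.25, edgeR adjusted p = 0.000912). KRT4, its usual partner in filaments, fell by 2.09 and 2.07, and involucrin IVL, a cornified envelope protein, by 1.01 and 1.42. Leaving out libraries ended some of these calls: IVL lost its call without DMSO 1, and KRT4 without DMSO 1, 2 or 3, CDDO-Me 3, PRL-295 1 or PRL-295 3. The protease KLK5 fell by 0.95 and 0.21, and lost its call without any 1 DMSO library, PRL-295 1 or PRL-295 3, and with the GC and length correction (edgeR adjusted p = 0.237). The list count was 1 without DMSO 1 and 2 without PRL-295 1, PRL-295 3, DMSO 2 or DMSO 3. Beside these counts, the summed keratinocyte markers given above were higher with CDDO-Me and lower with PRL-295 than in DMSO, and their part in the result was not tested.

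In the basal and hemidesmosome list 4 of 14 rose, among them the laminin chain LAMA3 and the integrins ITGA6 and ITGB1, and the basal keratin KRT15 fell, against the same 2.39% and 1.82%. The list medians were 0.61 with CDDO-Me and -0.07 with PRL-295. With CDDO-Me alone 10 were higher and 1 lower than DMSO, and with PRL-295 alone 0 and 1. The direct test passed for 8 of the 14, against 1.59% of all tested genes. ITGA6, which anchors basal cells to laminin, had 296, 310 and 287 CPM in DMSO, 941, 1201 and 873 with CDDO-Me and 410, 311 and 364 with PRL-295. PRL-295 2 lay within 1 CPM of DMSO 2, and the changes were 1.76 with CDDO-Me and 0.28 with PRL-295. KRT15, by contrast, was lower in all 6: 434, 286 and 418 CPM in DMSO, 48.4, 46.7 and 49.8 with CDDO-Me and 165, 185 and 183 with PRL-295. LAMA3 lost its call without DMSO 1, and ITGB1 without any 1 DMSO library, PRL-295 1 or PRL-295 3. The number of risers was 2 without DMSO 1, and 1 in a model of 2 groups, in which the difference between the compounds adds to the error.

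In the wound edge and migration list 4 of 26 rose and 2 fell, against 2.39% and 1.82% of all tested genes. Singly against DMSO, 8 were higher and 1 lower with CDDO-Me, and 2 and 2 with PRL-295. PLAU, the urokinase plasminogen activator, rose by 0.39 with CDDO-Me and 0.80 with PRL-295, SERPINE2 by 1.80 and 0.78 and the hyaluronan receptor CD44 by 0.66 and 0.32. The hyaluronan synthase HAS3 fell by 1.27 and 0.24 and S100A9 by 0.50 and 0.85. The number of risers was 1 without DMSO 1, DMSO 2 or PRL-295 3. CD44 lost the call without DMSO 1, DMSO 2 or PRL-295 3, and PLAU also without CDDO-Me 2 or CDDO-Me 3 while keeping it without PRL-295 1. S100A9 lost it without any 1 DMSO library, CDDO-Me 3, PRL-295 1 or PRL-295 3, and with the GC and length correction (edgeR adjusted p = 0.306).

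The EGF receptor list, whose ligands drive keratinocyte migration and division, had 6 of 12 tested genes higher, against 2.39% of all tested genes. Singly against DMSO, 5 were higher with CDDO-Me and 1 with PRL-295, against 4.65% and 0.462% of all tested genes. The 6 were AREG, HBEGF, NRG1, TGFA, EPGN and the receptor's feedback inhibitor ERRFI1. HBEGF had 33.2, 35.6 and 43.5 CPM in DMSO, 44.6, 45.1 and 52.1 with CDDO-Me and 62.2, 71.4 and 69.1 with PRL-295. AREG had 6.40, 9.68 and 9.78 CPM, then 16.03, 39.0 and 30.6, then 19.0, 15.5 and 16.3. EPGN had 0.284, 0.738 and 0.219 CPM, then 4.92, 10.3 and 4.66, then 3.73, 1.79 and 3.44. All 6 treated libraries lay above the controls in each. Only NRG1 (1.04 and 0.38) was called in every leave-out: the count was 1 without DMSO 1, 2 without DMSO 2, and 3 without DMSO 3, PRL-295 1 or PRL-295 3, and it was 1 in the model of 2 groups. EPGN lost its call without DMSO 1 alone.

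BMP signalling directs epidermal differentiation, and ID genes are its standard early targets. Of 17 tested genes of the BMP, ID and TGF-beta list 6 fell and 1, BMP4, rose, against 1.82% and 2.39% of all tested genes. Singly against DMSO, 4 were lower and 1 higher with CDDO-Me, and 2 and 0 with PRL-295. Over all tested genes, 4.57% were lower with CDDO-Me and 0.222% with PRL-295. SMAD6 (chromosome 15, 66702228 to 66782848), a feedback inhibitor that BMP signals induce, had 44.8, 35.1 and 37.0 CPM in DMSO, 15.4, 17.0 and 15.1 with CDDO-Me and 15.3, 18.3 and 15.6 with PRL-295. The treated groups overlapped, at 2.46-fold and 2.38-fold below DMSO (pooled log2 fold change -1.27, edgeR adjusted p = 0.0007; direct difference 0.05, 95% interval -0.31 to 0.41). The inhibitors of differentiation ID1 (-1.49 and -0.59), ID2 (-0.56 and -0.93), ID3 (-1.06 and -0.72) and ID4 (-0.61 and -1.34) and the ligand BMP7 (-0.78 and -0.47) fell. SMAD6 and ID3 were called in all 19 alternatives and ID1 in every leave-out. ID4 lost its call without DMSO 1, DMSO 2 or PRL-295 3, and ID2 and BMP7 in these and further leave-outs, 6 and 7 of 9. The number lower was 3 without DMSO 1, DMSO 2 or PRL-295 3, and 2 in the model of 2 groups. BMP4, at 6.89, 8.39 and 6.53 CPM in DMSO, was 29.3, 20.9 and 19.6 with CDDO-Me but 8.12, 8.15 and 7.03 with PRL-295, which overlaps DMSO. It lost its call without DMSO 1, 2 or 3, PRL-295 1 or PRL-295 3.

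The retinoid list showed 4 of 15 lower and 1 on opposite sides, against 1.82% and 0.0431% of all tested genes. Singly against DMSO, 6 were lower with CDDO-Me and 0 with PRL-295, against 4.57% and 0.222% of all tested genes. STRA6, the receptor for retinol uptake, had 15.2, 10.6 and 8.62 CPM in DMSO, 0, 0.204 and 0.0423 with CDDO-Me and 5.70, 4.65 and 4.92 with PRL-295. CYP26A1, which degrades retinoic acid, had 0 counts in each CDDO-Me library, at least 11.9-fold below DMSO against the 3-count floor, and 1.15, 0.762 and 0.740 CPM with PRL-295, inside the DMSO range of 0.615 to 2.47. The retinaldehyde reductase DHRS3 (-3.66 and -0.25) and the receptor RARG (-0.87 and -0.41) fell too. ALDH1A3, which makes retinoic acid, had a change of -1.32 with CDDO-Me and of 0.12 with PRL-295. The number lower was 2 without DMSO 1, and 0 in the model of 2 groups. CYP26A1 lost its call without DMSO 1 or 3 or PRL-295 1 or 3 and in both limma fits (adjusted p = 0.101 and 0.0550), and DESeq2 gave it no adjusted p. RARG lost its call without DMSO 1.

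The counts of the other lists stand against 2.39% higher and 1.82% lower among all tested genes. Of 6 aryl hydrocarbon receptor genes, TIPARP, a feedback repressor of that receptor, rose in all 19 alternatives: 38.1, 39.5 and 36.0 CPM in DMSO, 72.4, 96.2 and 76.6 with CDDO-Me and 80.9, 73.2 and 81.6 with PRL-295. Of 25 sterol and fatty acid synthesis genes 4 fell and 2 rose, and 1 was called in every leave-out. That gene was SREBF1, which drives lipid synthesis and fell in all 19 alternatives as well (-1.28 and -0.79). Of 18 ATF4 targets 1 rose and 2 fell, with a median pooled log2 fold change of -0.006. STC2, a secreted ATF4 target, rose by 0.71 and 0.70. SLC7A5 and DDIT4 fell, with calls kept in 3 and 4 of the 9 leave-outs. Among cytokines CCL2, a monocyte attractant, fell from 19.7, 19.1 and 25.2 CPM to 1.19, 1.19 and 1.40 with CDDO-Me and 10.1, 8.88 and 8.07 with PRL-295, and IL1A rose (1.33 and 1.74), a call that ended without DMSO 1, 2 or 3, CDDO-Me 3, PRL-295 1 or PRL-295 3. Of 26 proteasome subunits 5 rose: none did without DMSO 1 or DMSO 2, 1 without DMSO 3 or PRL-295 1, 2 without CDDO-Me 3 or PRL-295 3, and 10 without CDDO-Me 1. Of 18 mitosis genes none passed in edgeR's or DESeq2's test and 6 had an unadjusted p under 0.05, while 5 were called without CDDO-Me 1. Over all 16239 tested genes, 3399 had an unadjusted p under 0.05 in edgeR's pooled contrast. In the remaining lists (heat shock, endoplasmic reticulum chaperones, DNA replication, p53, glycolysis, metallothioneins, mitochondrially encoded genes, NF-kB and epithelial transcription factors) at most 2 genes passed in either direction.

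Falls among the largest that are not yet described included TRPV6 and ELF3. TRPV6, an epithelial calcium channel, had 14.8, 17.8 and 15.5 CPM in DMSO, 4.23, 2.75 and 3.47 with CDDO-Me and 5.79, 7.51 and 5.78 with PRL-295, and was called in all 19 alternatives. ELF3, the lower gene of the epithelial transcription factor list, had 25.0, 16.3 and 20.2 CPM, then 0.720, 0.679 and 0.296, then 10.1, 12.3 and 10.1, with no overlap between any of the groups. The ankyrin gene ANK1 (-1.56 and -1.72), the receptor ADGRF3 (-1.31 and -1.73), CCDC33 and the histone gene HIST3H2BB (-2.11 and -1.49) were among the 10 largest falls but each lost its call without DMSO 1, 2 or 3. ANK1 also lost it without PRL-295 3, and ADGRF3 and HIST3H2BB without CDDO-Me 2 or any 1 PRL-295 library, ADGRF3 also without CDDO-Me 3.

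The common genes moved unequally with the compounds as given. The median log2 fold change was 1.00 with CDDO-Me and 0.73 with PRL-295 over the 388 higher genes, and -0.89 and -0.44 over the 295 lower genes. CDDO-Me had the larger change in 305 of 388 and 261 of 295, and the share over all tested genes was not counted. The median SD of log2 CPM within a group was 0.302 for CDDO-Me, 0.181 for PRL-295 and 0.185 for DMSO. The part of this spread in the larger CDDO-Me changes was not tested. The direct test of PRL-295 against CDDO-Me passed for 36 of the 388 and 64 of the 295, against 258 of all 16239 tested genes (1.59%), and the CDDO-Me change was the larger in 35 of the 36 and all 64. CDDO-Me alone against DMSO passed for 755 higher (4.65%) and 742 lower genes (4.57%), and PRL-295 alone for 75 (0.462%) and 36 (0.222%). These comparisons share the DMSO libraries. Besides HMOX1 and AKR1C1 (-0.97, 95% interval -1.29 to -0.65), the direct test separated the cytoskeletal gene MAP1B (-2.03), the adhesion molecule FLRT2 (-1.77), BMP4 (-1.58) and the myosin gene MYH15 (-1.50) among higher genes, and KRT15 (1.88), STRA6 (5.87) and ELF3 (4.23) among lower genes. MAP1B and FLRT2 lost the pooled call without DMSO 2, and MYH15 without DMSO 1, 2 or 3. BST2, CCL2, DHRS3, ELF3, HAS3, ID1, ITGA6, KRT15, NRG1, SERPINE2 and STRA6 kept their pooled calls in every leave-out and lost them in the model of 2 groups only. The 7 genes on opposite sides included APOBEC3B, a cytidine deaminase with 74.1, 91.0 and 90.7 CPM in DMSO, 29.9, 25.6 and 23.9 with CDDO-Me and 79.2, 99.5 and 82.7 with PRL-295.

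Some calls of named genes also ended under settings that kept all libraries. With the GC and length correction ADGRF3, BIK, BMP7, ERRFI1, FLRT2, GGT1, ID2, IRF1, IRF7, KLK5, S100A9, TAP1, TGFA and TINAGL1 were no longer called (edgeR adjusted p from 0.0539 to 0.306). BACH1, CYP26A1, IL1A, KCNB2, SRXN1 and SLC7A11-AS1 were not called in either limma fit, and FLRT2, HIST3H2BB, XAF1 and TPT1 missed in 1 of them. ADGRF3 was also not called with RLE scaling or with no filter, and SOCS1 not with RLE scaling.

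**Figure D5:**
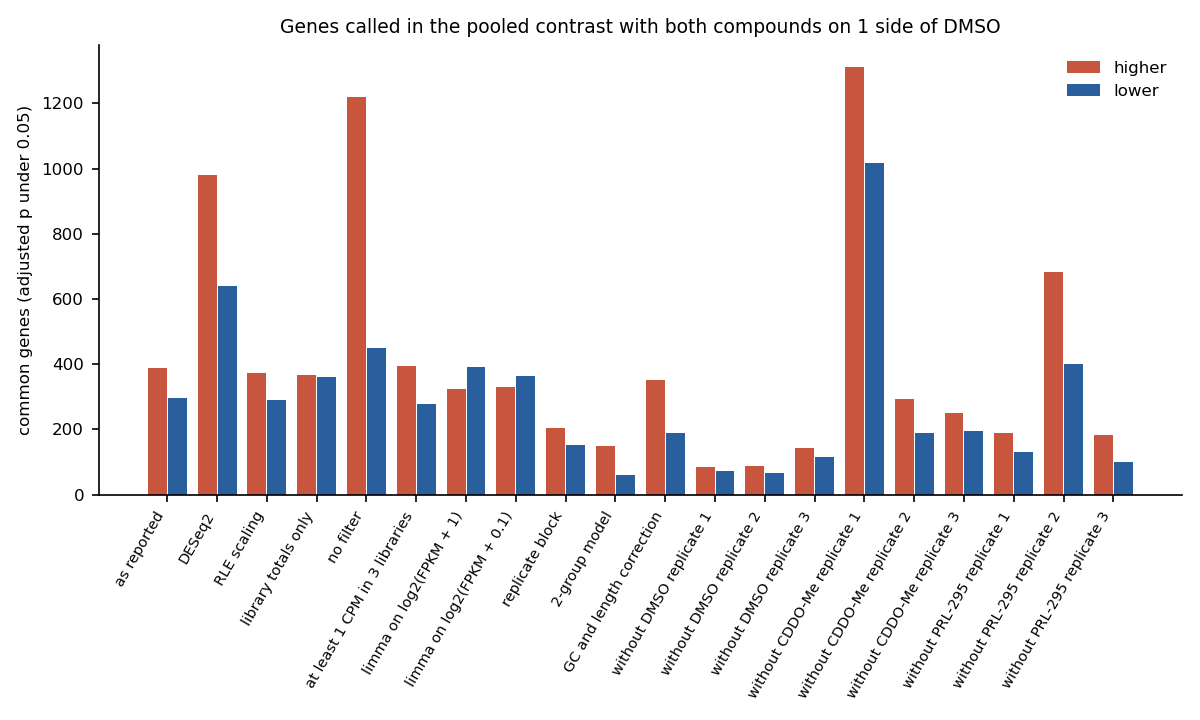
Number of common higher and common lower genes (bars from 0, adjusted p under 0.05) as reported and under 19 other settings of test, scaling, filter, model and library set. The counts range from 85 to 1312 higher and 60 to 1017 lower, against 388 and 295 as reported.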

How the data were processed

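Total RNA from HaCaT cells was sequenced in 9 libraries, 3 per group. Per the labels' protocols, STAR 2.5 placed paired-end reads on hg38, and the authors deposited read counts per gene made with HTSeq 0.6.1. The annotation release and any use of strand are not given in the sources used here. The deposited FPKM were made by the authors from count and gene length, and equalled count over length and library total for 100% of values within 0.1%. The members, the 36 lists of 539 symbols, each found in the table, and the rules were chosen with earlier results of these data known. Counts of 58676 genes were tested in edgeR 4.0.16 (R 4.3.3; filterByExpr by group, TMM, quasi-likelihood, 1 fit of 9 libraries), with a contrast that gives each compound a weight of 0.5 against DMSO and Benjamini-Hochberg adjustment over 16239 genes, threshold 0.05. The direct contrast, PRL-295 minus CDDO-Me, came from the same fit. Intervals are 95%.

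A library of this depth has a floor of 3 counts at 0.0922 to 0.127 CPM, which covers counting error only. Named genes were the 4 markers, the 10 largest changes per direction by the smaller of the compounds' changes (at least 1 CPM, no overlap), up to 4 common genes per list, or 2 of the highest CPM where a list had none, the 5 largest direct differences per direction and up to 5 genes on opposite sides. Other genes in the text are members of the lists. On simulated counts of 16239 genes, 20% of genes changed 1.5-fold, 50% of those changed 2-fold, and 92% of those changed 4-fold were recovered, with 6 false calls. The changed genes had at least 1 CPM and moved equally with both compounds. The simulation held no GC trend and no library that stood apart, so these values may not hold for the real libraries. The alternatives comprised DESeq2 1.42.0, RLE scaling, library totals only, no filter, at least 1 CPM in 3 libraries, limma 3.58.1 on log2(FPKM + 1) and log2(FPKM + 0.1), a replicate block, a model of 2 groups, a GC and length correction (GENCODE 29) and leaving out each library. No 2 libraries were identical. Some list genes that were tested and counted are not reported here by name. Promoter sequences are RefSeq's for GRCh38.p14, matched by symbol for 10422 of the tested genes. The authors' FPKM tables served the limma fits only.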

Additional observations from a re-analysis of the deposited data

Results flagged for a closer look

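Among genes called in the pooled contrast, the compounds themselves differed in the direct test for the genes named by rule, each given as the log2 of PRL-295 over CDDO-Me at the concentrations used. Higher with CDDO-Me than with PRL-295 were HMOX1 (-3.10), MAP1B (-2.03), FLRT2 (-1.77), BMP4 (-1.58) and MYH15 (-1.50). Lower with CDDO-Me, and on the same side of DMSO with both compounds, were ELF3 (4.23), NEURL3 (4.52) and STRA6 (5.87). CCDC33 was at least 4.09-fold and CYP26A1 at least 6.96-fold higher with PRL-295 than with CDDO-Me, where every library had 0 counts, against a floor of 3 counts per library. On opposite sides of DMSO were BIK (1.44), APOBEC3B (1.72), TINAGL1 (2.19), PRSS22 (2.41) and KCNB2 (5.96). All 5 lay lower with CDDO-Me, while the change with PRL-295 was 0.04 for BIK, 0.03 for APOBEC3B, 0.04 for PRSS22 and 0.07 for KCNB2, whose PRL-295 libraries overlapped DMSO, and 0.36 for TINAGL1, whose libraries did not. In all CDDO-Me libraries together KCNB2 had 2 counts, NEURL3 5 and STRA6 7, so these values rest on very few reads.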

How the results depend on the processing

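As reported, 388 genes were common and higher, 295 common and lower, 100 of them differed between the compounds, and 112 of 490 tested list genes were common. These became 981, 639 and 292 with DESeq2 (first 3 counts), 1219, 450 and 387 with no filter, and 148 and 60 (first 2) with 53 list genes in the model of 2 groups. With the GC and length correction 353 were higher and 190 lower in all, while 236 of the 388 and 136 of the 295 passed again. With the replicate number as a replicate block they were 205, 152 and 57. Deviations of samples with the same number correlated at -0.218 to 0.107, and those with different numbers at -0.128 to 0.274. With 3 libraries per group and CDDO-Me 1 apart, these correlations cannot decide whether the numbers pair the samples. Leaving out 1 library gave 85 to 1312 higher, 66 to 1017 lower, 30 to 170 differing and 57 to 168 list genes. The causes were not tested. Across all 19 alternatives 60 higher and 27 lower genes kept their calls, and no named gene that was called changed direction. The median of all tested genes moved by less than 0.1 on the log2 scale in each setting.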
